A study of Homo sapiens with 6 samples.

Results

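The mitochondrial ribosomal protein genes of the RNA-Sequence table are the 76 gene symbols that begin with MRPL or MRPS and go on with a number and at most one letter from A to D. Pseudogene symbols and 1 further symbol were left out. They are 76 of 54259 symbols in the table, and all 76 passed the filter on low counts that left 15277 genes for the test. The choice used names only and no measured value. The libraries came from MDA-MB-231 shBry cells (3 libraries), in which a short hairpin RNA targets brachyury, a T-box transcription factor, and from MDA-MB-231 shNC cells (3 libraries), which carry a control hairpin. The line MDA-MB-231 was established from a human breast cancer and lacks estrogen receptor. No treatment or time point is given for either group. The hairpin sequence and the number of clones behind each group are not given in the sources used here, and nothing says that the 3 libraries of a group came from separate cultures, so the p-values measure only the spread between these libraries, which may be technical.

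Mitochondria keep a ribosome of their own that translates only the few mRNAs of mitochondrial DNA, all of which encode membrane subunits of the respiratory chain and of ATP synthase. Its ribosomal RNAs are transcribed from mitochondrial DNA, while its proteins are encoded in the nucleus, made in the cytosol and imported. MRPS genes mostly encode the small subunit, which decodes the mRNA, and MRPL genes the large subunit, which forms the peptide bonds and is held at the inner membrane. Some of these proteins have a bacterial counterpart, and others are found only in mitochondrial ribosomes. By these textbook assignments 50 of the genes encode proteins of the large subunit and 25 of the small subunit. MRPS18A and MRPS30 belong to the large subunit in spite of their names. MRPS36 was placed in neither, since its protein is now known as a part of the 2-oxoglutarate dehydrogenase complex.

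Each library held between 19319411 and 22985371 counts. Brachyury, listed as T, had 0 counts in each of the 6 libraries, so the labels could not be tested by the gene that the hairpin targets. The limit that a count of 0 allows (3 counts of the total, for counting error only) is 0.155 CPM, counts scaled to a common library size, in the smallest library. Markers of MDA-MB-231 cells (VIM, CD44, EGFR, CAV1, FOSL1 and AXL) were all present, at between 5363 and 6043 CPM summed over the list. The luminal markers ESR1, PGR, CDH1, GATA3, KRT19 and EPCAM summed to between 11.9 and 19.4 CPM, and 7 leukocyte markers to between 0.621 and 2.003 CPM. The study's design text calls the RNA pericardial, while the labels name the cell line. Of 10 mesothelial and cardiac markers the sum lay between 40.3 and 57.8 CPM, most of it from MSLN. The cardiac genes MYH6, MYH7 and NPPA were at 0 in all libraries, while TNNT2 and ACTC1 had counts in shNC. Of the 10 markers 3 passed the filter on low counts, 1 of them called higher and 1 lower by the rule given below.

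shBry replicate 2 stood apart from the other libraries of its group in these genes. It held the lowest TMM-normalized value of its group for 66 of the 76 genes. Summed over all 76, the level was 5075, 5255 and 5085 CPM in shNC replicates 1, 2 and 3, and 5227, 4430 and 4992 CPM in shBry replicates 1, 2 and 3. The sums of the groups therefore overlapped, and the lowest one belonged to shBry replicate 2. The median log2 deviation from the mean of the shBry group was -0.16 in replicate 2, against 0.10 in replicate 1 and 0.05 in replicate 3. Over all 7871 tested genes in the same range of levels with a known length the median deviation of replicate 2 was only -0.03. Cytosolic ribosomal protein genes (-0.19) and nuclear-coded respiratory chain genes (-0.17) deviated in that library like the mitochondrial ribosomal protein genes. Across those 7871 genes the deviation of replicate 2 had a Spearman's rho of 0.56 with the length of the exons, so that genes with short exons were lower there. The rho was -0.43 in replicate 1 and -0.32 in replicate 3, and -0.03, -0.40 and 0.29 in shNC replicates 1, 2 and 3. With GC content, the share of G and C in the transcripts, it was 0.57, -0.46 and -0.02 in shBry replicates 1, 2 and 3. In the shNC replicates it was 0.64, 0.51 and -0.83, so such trends were not particular to shBry replicate 2. Deviations are taken from the mean of each group, so a trend in 1 library brings opposite trends in others. These are descriptions across genes of single libraries, and their part in the results was not tested. The main counts are therefore given with and without shBry replicate 2.

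**Figure D1:**
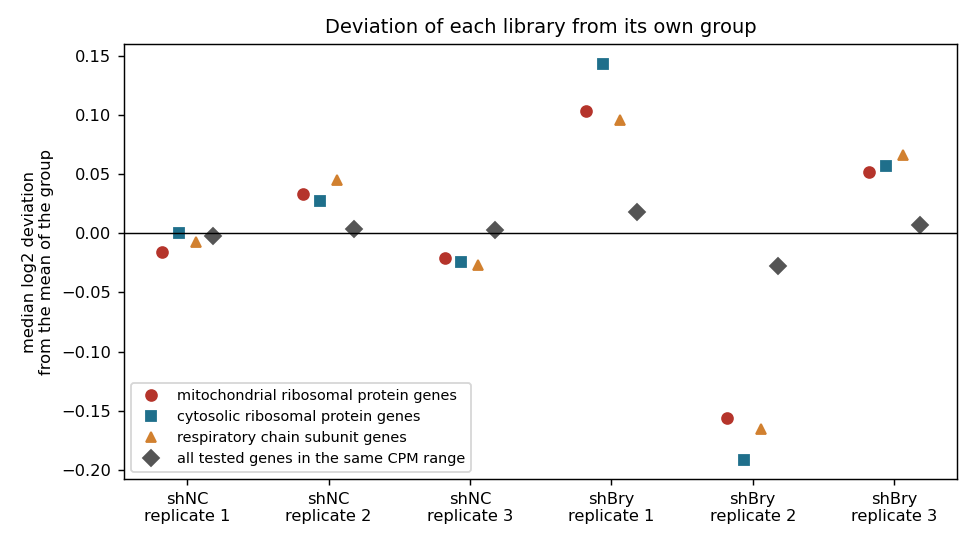
Median log2 deviation of each library from the mean of its own group (y axis) for the mitochondrial ribosomal protein genes, the cytosolic ribosomal protein genes, the respiratory chain subunit genes and all tested genes in the same CPM range, by library (x axis). In shBry replicate 2 the first 3 gene groups lie between -0.16 and -0.19, while all genes of that range lie at -0.03.

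Few of the 76 genes passed both limits of the call rule, whose limit on fold change is that of the study's methods. A gene was called when its adjusted p was below 0.05 (quasi-likelihood test of edgeR, Benjamini-Hochberg adjustment over all 15277 genes) and its fold change was above 1.5. Each log2 fold change sets shBry over shNC and is given ± its standard error where one is printed, with the adjusted p of that test. In shBry 2 genes (2.63%) were called higher and 9 (11.8%) lower, where 17.1% of all tested genes were called higher and 15.2% lower. Together 11 of 76 (14.5%) were called, against 32.4% of all tested genes and 29.2% of the 8153 tested genes that lie in the same range of CPM. This range, here and elsewhere, runs from a mean of 11.1 to 186 CPM. It was set without MRPS12, which had a mean of 1.03 CPM. The share called was thus below the background. Without shBry replicate 2, 5 genes were called higher and 9 lower, and the 11 genes were among them. Without shBry replicate 1, 3 were called higher and 15 lower, and without shNC replicate 3, 4 were called higher. In RNA of whole cultures, fewer cells with a transcript and less of it per cell cannot be told apart.

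Differences under the fold change limit, in contrast, made up a larger share of these genes than of all tested genes. Without the limit on fold change 46 of the 76 genes (60.5%) had an adjusted p below 0.05, 17 of them higher and 29 lower, against 53.3% of all tested genes (28% higher and 25.3% lower) and 60.3% of those in the same range of CPM. Of these 46, 35 stayed under the fold change limit, 15 higher and 20 lower, which is 46.1% of the family, against 20.9% of all tested genes and 31.1% of those in the same range of CPM. The same share was 43.4% of the cytosolic ribosomal protein genes tested and 27% of the nuclear-coded respiratory chain genes tested. A large share was thus not particular to this family. The differences between these shares were not tested. The 3 shBry values lay all above the 3 shNC values for 15 genes and all below for 30 genes, together 59.2%, against 59.5% of all tested genes (30.6% above and 28.9% below) and 64.9% of those in the same range of CPM. The excess of lower over higher genes depended on shBry replicate 2. Without it 24 genes were higher and 25 lower at an adjusted p below 0.05.

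The fold changes of the family centred close to 0. Their median was -0.10 on the log2 scale, with the middle of the distribution between -0.44 and 0.22 and the extremes at -1.01 and 0.77, while the median of all tested genes was 0.03. Leaving out each library in turn moved the median of the family between -0.14 and -0.05. The standard deviation of the log2 fold changes was 0.44. It was 0.68 for tested genes in the same range of CPM and 0.84 for all tested genes. The middle of the distribution (quartiles) differed less. It ran from -0.34 to 0.38 in the same range of CPM, nearly as wide as in the family, and from -0.40 to 0.44 for all tested genes. The extremes in the same range of CPM were -3.30 and 9.33, and such values widen a standard deviation.

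**Figure D2:**
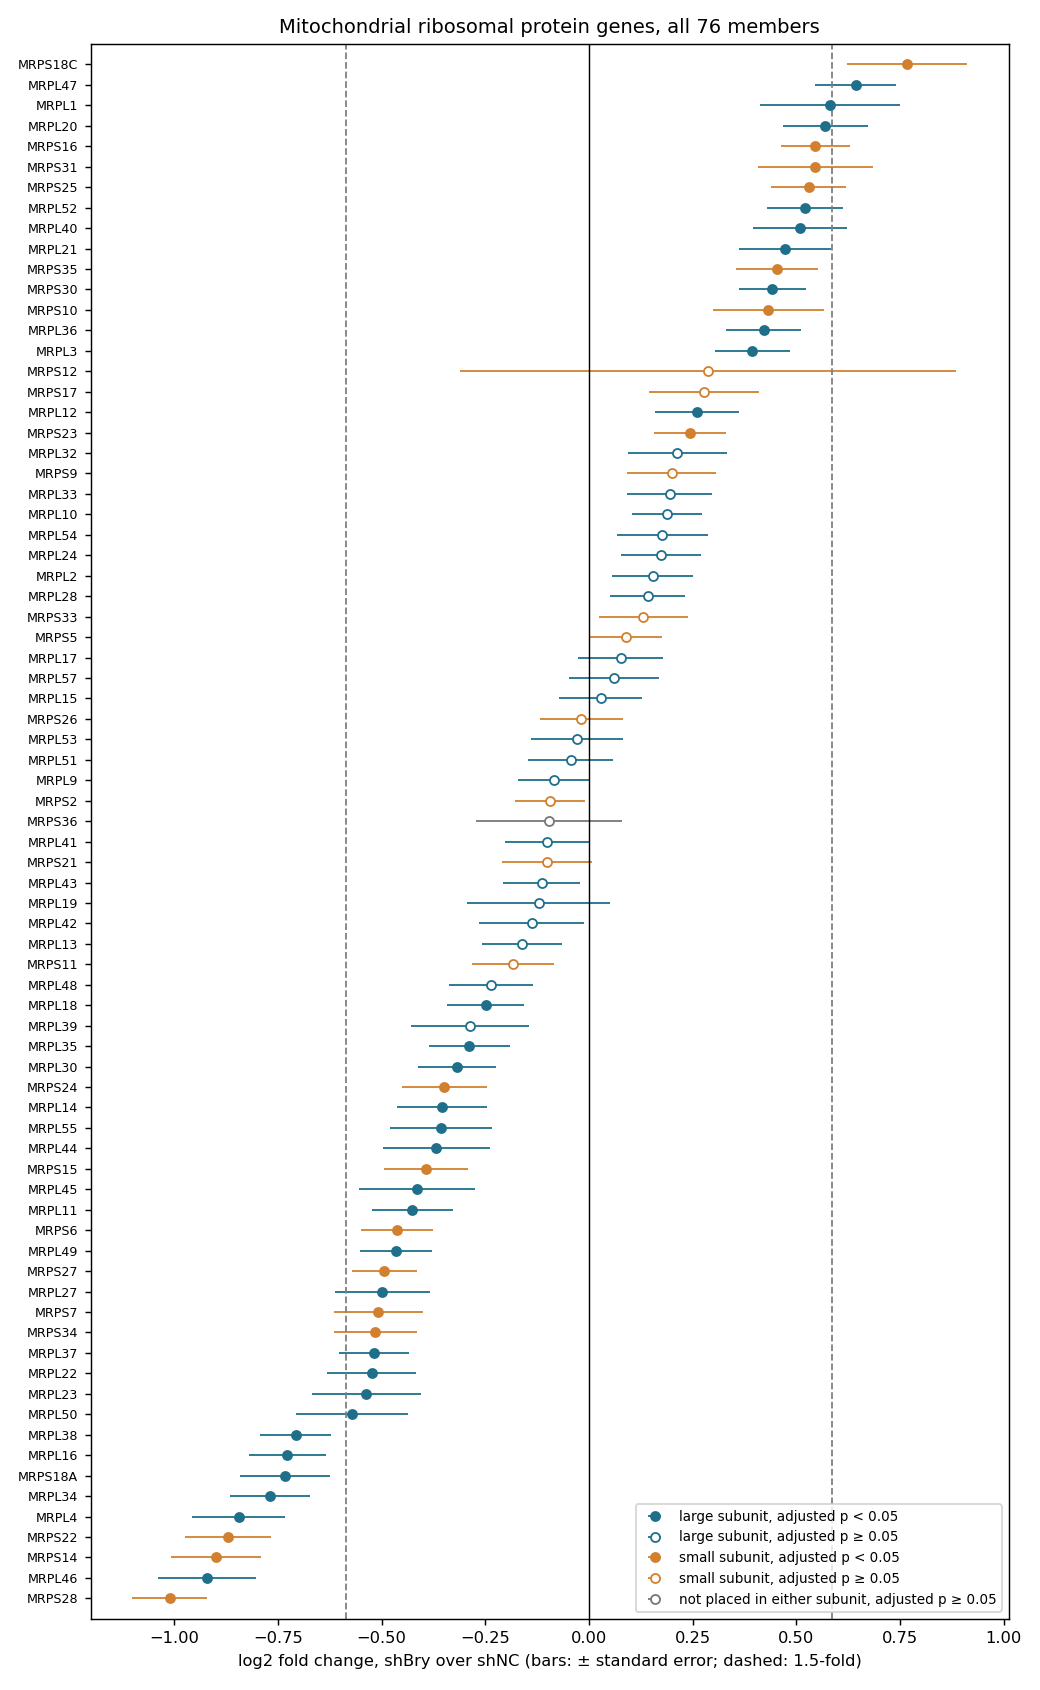
Log2 fold change of shBry over shNC with its standard error (x axis) for each of the 76 mitochondrial ribosomal protein genes (y axis, sorted), coloured by subunit and filled where the adjusted p was below 0.05. The values run from -1.01 (MRPS28) to 0.77 (MRPS18C), and 9 genes lie below and 2 above the dashed lines at a 1.5-fold change.

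Both subunits held called genes in both directions. Of all tested genes 17.1% were called higher and 15.2% lower. In the large subunit 1 of 50 genes was called higher (2%) and 6 lower (12%), with a median log2 fold change of -0.12. In the small subunit 1 of 25 was called higher (4%) and 3 lower (12%), with a median of -0.02. Genes with a bacterial counterpart (46) had 2 called higher (4.35%) and 5 lower (10.9%) and a median of -0.09. Genes of proteins found only in mitochondrial ribosomes (29) had none called higher and 4 lower (13.8%) and a median of -0.11. Within the last class the medians of the subunits had opposite signs, at 0.13 for 9 genes of the small subunit and -0.19 for 20 genes of the large subunit. These classes are described by their counts and medians, and no difference between them was tested.

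The largest fall was that of MRPS28, the gene of a small subunit protein, which lies on the minus strand of chromosome 8 (GRCh38, from 79918717 to 80030289). It had 64.6, 67.8 and 68.4 TMM-normalized CPM in shNC replicates 1, 2 and 3, and 33.3, 31.2 and 35.1 CPM in the shBry replicates. Every shBry library was thus near one level and every shNC library near another, with no overlap. The level fell from 66.9 ± 2.03 to 33.2 ± 1.96 CPM (SD, n = 3 libraries each), which gave a log2 fold change of -1.01 ± 0.09 (adjusted p = 5.1e-07). It was the only one of the 76 genes past a fold change of 2. Exons of other genes cover 42% of its exon bases, the largest part by AC036214.3, annotated on the same strand. Reads of the overlapping genes could not be fully told apart.

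MRPS14 and MRPS22, the other genes of the small subunit that were called lower, had separate groups as well. MRPS14, a protein of the head of the small subunit with a bacterial counterpart (chromosome 1, from 175010789 to 175023425, minus strand), had 33.4, 33.3 and 31.3 CPM in shNC and 17.9, 16.4 and 18.2 CPM in shBry. Its log2 fold change was -0.90 ± 0.11 (adjusted p = 8.8e-06). No exon of another gene's GENCODE basic transcripts lies over its exons. Over all GENCODE transcripts, 10.1% of the stretches of 50 bases in its transcripts also occur in other genes, with the most in CACYBP. MRPS22, a protein found only in mitochondrial ribosomes (chromosome 3, from 139005806 to 139357223, plus strand), had 55.2, 52.8 and 57.0 CPM in shNC and 33.3, 26.6 and 30.5 CPM in shBry. Its log2 fold change was -0.87 ± 0.10 (adjusted p = 7.7e-06). Exons of other genes cover 17% of its exon bases. The largest part lies opposite PRR23A, which had 0 counts in all 6 libraries.

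In the large subunit MRPL46 and MRPL38, which belong to the central protuberance on top of the subunit, both fell. MRPL46 (chromosome 15, from 88459476 to 88467419, minus strand) had 34.1, 33.9 and 33.5 CPM in shNC and 20.2, 15.5 and 18.0 CPM in shBry, a log2 fold change of -0.92 ± 0.12 (adjusted p = 1.7e-05). MRPL38 (chromosome 17, from 75898643 to 75905413, minus strand) had 91.8, 92.0 and 83.4 CPM in shNC and 57.7, 52.4 and 53.6 CPM in shBry, a log2 fold change of -0.71 ± 0.09 (adjusted p = 9.8e-06). Neither gene had overlapping groups. Exons of other genes cover 45.3% of the exon bases of MRPL46 and 5.03% of those of MRPL38. The largest part is from unnamed genes on the same strand in both cases. Of the stretches of 50 bases in transcripts of MRPL38, 36.6% also occur in those of other genes.

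MRPL4, MRPL16 and MRPL34, proteins of the large subunit with bacterial counterparts, fell by a similar size. MRPL4, the called gene with the highest CPM, though not the highest level per exon length (chromosome 19, from 10251901 to 10260045, plus strand), had 150.4, 145 and 127 CPM in shNC and 90.4, 64.8 and 80.2 CPM in shBry, a log2 fold change of -0.85 ± 0.11 (adjusted p = 2.3e-05). MRPL16, on chromosome 11 from 59806135 to 59810872 on the minus strand, had 82.4, 80.6 and 81.6 CPM in shNC and 52.0, 43.4 and 52.5 CPM in shBry, a log2 fold change of -0.73 ± 0.09 (adjusted p = 1.6e-05). Together with MRPS14 it was one of the 2 called genes whose exons overlap no exon of another gene's basic transcripts. MRPL34 (chromosome 19, from 17292609 to 17306843, plus strand) had 65.7, 71.1 and 63.4 CPM in shNC and 40.8, 35.4 and 41.2 CPM in shBry, a log2 fold change of -0.77 ± 0.10 (adjusted p = 1.2e-05). Exons of other genes cover 16.5% of the exon bases of MRPL34, the largest part by ABHD8 on the opposite strand. ABHD8 was also called lower with a log2 fold change of -0.62 ± 0.11 (adjusted p = 0.0003). Whether reads were counted by strand is not given in the sources used here, so the counts of such pairs cannot be told apart. The groups of all 3 genes were separate, with shBry replicate 2 the lowest library each time.

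The genes of the S18 group moved in different directions. Mammals carry several copies of this protein. MRPS18A, whose product sits in the large subunit (chromosome 6, from 43671303 to 43687791, minus strand), had 60.8, 63.2 and 59.8 CPM in shNC and 39.9, 30.8 and 39.9 CPM in shBry, a log2 fold change of -0.73 ± 0.11 (adjusted p = 5.9e-05). Exons of other genes cover 56.9% of its exon bases. The largest part lies opposite RSPH9, which had 0 counts in every library. MRPS18C, a protein of the small subunit (chromosome 4, from 83455932 to 83469735, plus strand), had 10.4, 10.8 and 12.4 CPM in shNC and 21.2, 15.7 and 20.5 CPM in shBry, a log2 fold change of 0.77 ± 0.15 (adjusted p = 0.0005). It showed the largest rise of the family from a low level. Exons of other genes cover 78.9% of the exon bases of MRPS18C, the largest part by ABRAXAS1 on the opposite strand. ABRAXAS1, listed under its older symbol FAM175A, was itself called higher, with a log2 fold change of 0.73 ± 0.26 (adjusted p = 0.032). The counts of MRPS18C and ABRAXAS1 cannot be told apart without strand.

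MRPL47, a protein near the exit of the nascent chain (chromosome 3, from 179588285 to 179604654, minus strand), was the other gene called higher. It had 35.6, 31.3 and 35.9 CPM in shNC and 54.7, 50.1 and 55.8 CPM in shBry, with no overlap of the groups. The level rose from 34.3 ± 2.58 to 53.5 ± 3.04 CPM (SD, n = 3), which gave a log2 fold change of 0.64 ± 0.10 (adjusted p = 7.5e-05). This call depended on a single library. Without shNC replicate 2 the log2 fold change was 0.56, under the limit, while the other 10 genes were called in each of the 6 fits that left out a library. Over the 11 called genes, 5 shared more than 20% of their exon bases with other genes (MRPS18C, MRPS18A, MRPL46, MRPS28 and MRPL4). Of the 61 genes of the family at or below that share, 1 was called higher and 5 lower (9.84% in all). Of the 42 genes without any overlap by basic transcripts 2 were called (4.76%), both lower. Among all tested genes 32.4% were called.

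**Figure D3:**
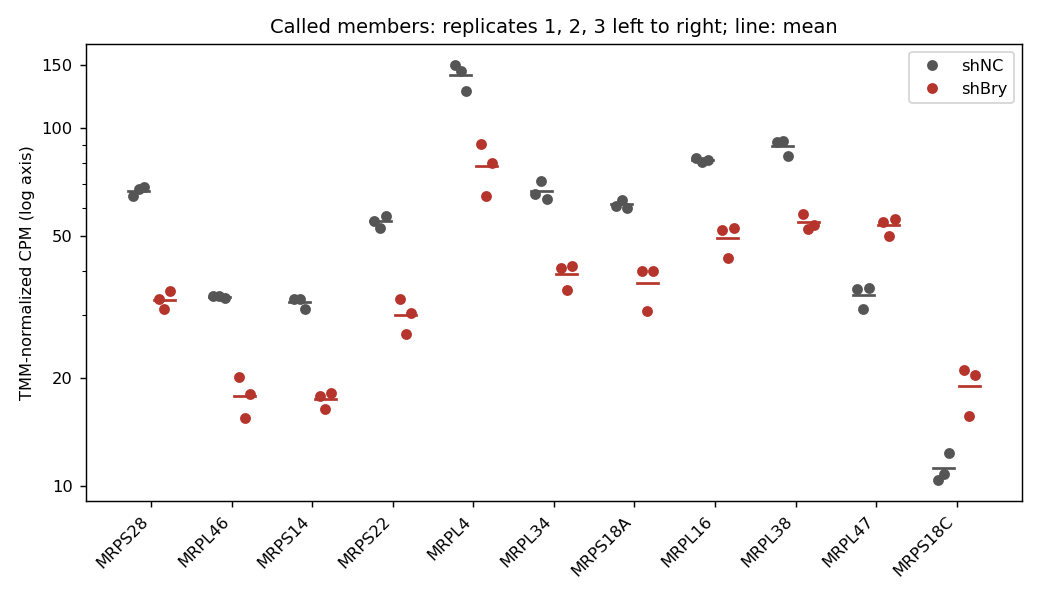
TMM-normalized CPM (y axis, log scale) of the 11 called genes (x axis) in each shNC library (grey) and each shBry library (red), replicates 1 to 3 from left to right, with a line at the mean of each group. The groups do not overlap for any of the 11 genes, with MRPS28 at 33.2 CPM against 66.9 CPM at the left and MRPS18C at 19.1 CPM against 11.2 CPM at the right.

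Just under the fold change limit lay MRPL50 with a log2 fold change of -0.57 (adjusted p = 0.0026), MRPL1 with 0.58 (adjusted p = 0.0098) and MRPL20 with 0.57 (adjusted p = 0.00032). They were chosen for this description after their values were seen. MRPL1 had 11.5, 14.2 and 17.5 CPM in shNC and 17, 24.2 and 23.4 CPM in shBry, so its groups overlapped. MRPL20 had 40.0, 40.7 and 39.4 CPM in shNC and 60.9, 51.5 and 65.8 CPM in shBry, and its groups did not. All 3 were called under other settings. MRPL50 was called in 5 of 12 other fits (by DESeq2, without TMM, without a filter and in 2 fits that left out a library), MRPL1 in 3 (by limma-voom and in 2 fits that left out a library) and MRPL20 in 1 (without shBry replicate 2).

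Many of these genes lie head to head with another gene. Neighbours of this kind start close together on opposite strands and can share a stretch of promoter. In GENCODE 29, 20 of the 76 genes had a neighbour on the opposite strand whose 5′ end lies at most 1000 bases away (or within 300 bases past the start). These made 19 pairs with both genes tested, because MRPL46 and MRPS11 are each other's neighbour. The log2 fold changes had the same sign in 8 pairs and opposite signs in 11. In 1 pair both genes were called, MRPL47 and NDUFB5, and they were called in opposite directions. NDUFB5, a subunit of respiratory complex I, starts 36 bases from MRPL47 and had 55.3, 62.2 and 69.5 CPM in shNC and 35.2, 33.0 and 37.9 CPM in shBry, a log2 fold change of -0.82 ± 0.10 (adjusted p = 1.6e-05). MRPL46 and MRPS11 start 34 bases apart, and MRPS11 had 68.2, 74.4 and 65 CPM in shNC and 64.9, 53.2 and 64.9 CPM in shBry, a log2 fold change of -0.18 that did not pass the test (adjusted p = 0.14). The groups of MRPS11 did not overlap but were apart by less than 1 CPM, while MRPL46 next to it was called lower. MRPS18C starts 76 bases from HELQ, which had a log2 fold change of 0.36 (adjusted p = 0.14).

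In 6 further pairs only the neighbour was called. Together with NDUFB5 that made 7 called neighbours in 19 pairs, where 32.4% of all tested genes were called. EME1 next to MRPL27 had a log2 fold change of -1.11, and MRPL27 itself -0.50 with an adjusted p of 0.0021. PSMA2, a proteasome subunit gene next to MRPL32, had -0.72, where MRPL32 had 0.21 (adjusted p = 0.15). PTCD2 next to MRPS27 had 0.70, where MRPS27 had -0.49 (adjusted p = 0.00012). PNPLA7 next to MRPL41, LRRC46 next to MRPL10 and SLC7A7 next to MRPL52 were called higher, at 0.73, 0.95 and 1.49. SLC7A7 rose from a mean of only 0.339 CPM in shNC and LRRC46 from 1.06 CPM. The groups of LRRC46 overlapped, with 1.22 CPM in shBry replicate 2 and 1.24 CPM in shNC replicate 1. MRPL41 itself had -0.10 (adjusted p = 0.42), MRPL10 0.19 (adjusted p = 0.073) and MRPL52 0.52 (adjusted p = 0.00026). In the pairs with PSMA2, PTCD2 and PNPLA7 the called neighbour and the ribosomal protein gene had opposite signs, and in the other 3 pairs the same sign.

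**Figure D4:**
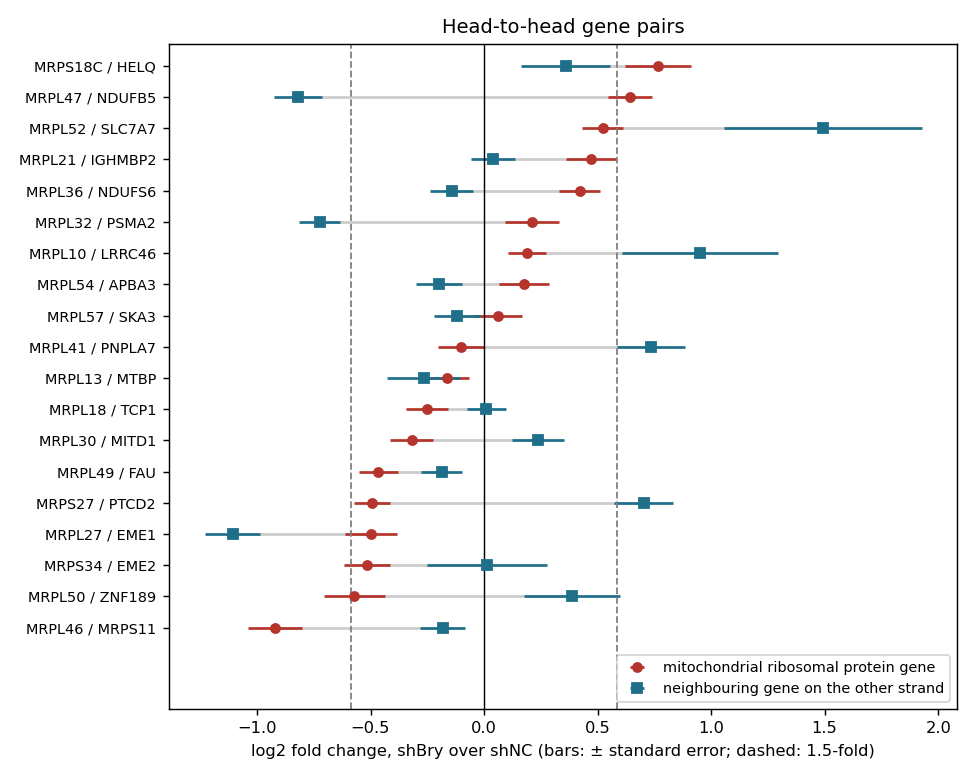
Log2 fold change of shBry over shNC with its standard error (x axis) for the 19 head-to-head pairs (y axis), the mitochondrial ribosomal protein gene in red and its neighbour in blue. MRPL47 at 0.64 and NDUFB5 at -0.82 lie on opposite sides of the dashed lines at a 1.5-fold change, and 11 of the 19 pairs have opposite signs.

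Promoter stretches are shown for 3 called genes that lie head to head (MRPL46, MRPL47 and MRPS18C) and for MRPS22 and MRPS14. Both of the latter are called genes of the small subunit without such a neighbour at the start of their GENCODE gene. A stretch is also shown for MRPS34, one of the most abundant genes of the family, whose short gap to EME2 carries 2 ETS motifs. The stretches are RefSeq sequences of GRCh38.p14 outside exons of GENCODE basic transcripts, given 5′ to 3′ on the strand of the named gene. The starts used for the pairs are those of the GENCODE gene records, which can lie outside the basic transcripts. The stretch of MRPL47 therefore runs past the start of NDUFB5, and that of MRPS18C past its own start, as used for the pairs. Capitals mark the searched motifs on either strand. These were the ETS motif (CCGGAAG, bound by GABPA among others), the NRF1 motif (GCATGCG), the YY1 motif (AAGATGG), the E-box (CACGTG), the CCAAT box (CCAAT) and the GC box (GGGCGG), and those of NRF1 overlap each other where both strands match.
MRPL46, minus strand, chr15:88467420-88467452, the whole gap to MRPS11: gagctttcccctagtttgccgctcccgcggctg
MRPL47, minus strand, chr3:179604655-179604701, towards NDUFB5: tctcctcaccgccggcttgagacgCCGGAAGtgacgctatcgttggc
MRPS34, minus strand, chr16:1773156-1773206, the whole gap to EME2: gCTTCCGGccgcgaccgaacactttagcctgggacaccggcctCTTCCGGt
MRPS22, plus strand, chr3:139343856-139343955: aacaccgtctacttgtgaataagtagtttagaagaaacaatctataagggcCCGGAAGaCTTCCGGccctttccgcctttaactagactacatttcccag
MRPS14, minus strand, chr1:175023426-175023525: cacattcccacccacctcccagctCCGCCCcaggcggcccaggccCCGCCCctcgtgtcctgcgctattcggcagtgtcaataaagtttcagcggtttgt
MRPS18C, plus strand, chr4:83455865-83455964: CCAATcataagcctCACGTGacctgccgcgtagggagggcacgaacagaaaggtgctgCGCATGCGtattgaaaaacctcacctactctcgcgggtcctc

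MRPS18C, the gene with the largest rise, thus held a CCAAT box, an E-box and an NRF1 motif, MRPL47 1 ETS motif, and MRPS22, which fell, 2 ETS motifs facing each other. The RefSeq start of MRPS22 lies inside the longer gene that GENCODE annotates, and no neighbour was searched for at that RefSeq start. The gap between MRPL46 and MRPS11 held none of the 6 motifs. Of the called genes not shown, the 100 bases taken for MRPL4 held 1 GC box and 3 CCAAT boxes, those for MRPL16 1 of each, and those for MRPS18A 1 GC box and 1 ETS motif. No stretch was obtained for the called genes MRPL34, MRPL38 and MRPS28, and MRPS28 had no matched RefSeq promoter. The 100 bases taken for MRPL24, an abundant gene that was not called, held none of the 6 motifs. RefSeq promoters of 300 bases (250 before and 50 after the start) were matched by symbol for 67 of the 76 genes. The ETS motif occurred in 28 of the 67 (41.8%), against 10.7% of all 27305 promoters, 18.6% of the promoters of tested genes and 33.3% of 66 promoters of cytosolic ribosomal protein genes. The YY1 motif occurred in 22 (32.8%), against 6.06% of all promoters, 7.51% of those of tested genes and 15.2% of those of cytosolic ribosomal protein genes. The NRF1 motif occurred in 6 (8.96%, against 6.33% of tested genes), the E-box in 6 (8.96%, against 10.2%), the CCAAT box in 20 (29.9%, against 36.3%) and the GC box in 41 (61.2%, against 69.5%).

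Split by the test, the ETS motif was present in 10 of 16 promoters of genes that were higher in shBry at an adjusted p below 0.05, in 7 of 26 of those that were lower and in 11 of 25 of those that did not pass. In the same order the YY1 motif was present in 7 of 16, 11 of 26 and 4 of 25, the GC box in 6, 19 and 16, the CCAAT box in 3, 10 and 7, the E-box in 2, 4 and 0, and the NRF1 motif in 2, 2 and 2. These counts are a description of letters in a window, with no test. Of the factors themselves, GABPA, the DNA-binding subunit of the ETS factor NRF2 (GABP), had 7.42 ± 0.770 CPM in shNC and 7.44 ± 1.06 CPM in shBry (SD, n = 3, adjusted p = 0.98). Its partner GABPB1 rose, from 17.4 ± 1.81 to 26.1 ± 2.41 CPM (log2 fold change 0.59 ± 0.12, adjusted p = 0.0012). NRF1 (log2 fold change 0.20, adjusted p = 0.13) and YY1 (0.16, adjusted p = 0.16) did not pass the test.

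The mitochondrial ribosomal protein genes differed widely in level among themselves. Per length, as the mean CPM of all 6 libraries per 1000 merged exon bases, the median gene was at 38.6. The highest level belonged to MRPL12, a protein of the stalk that binds the translation factors, at 181, followed by MRPS34 at 140, MRPL24 at 136, MRPL36 at 123.1 and MRPL15 at 87.8. Exons of other genes, most of all AC139530.2 on the same strand, cover 68.2% of the exon bases of MRPL12, so its level is uncertain. The abundant genes did not share a direction. MRPL12 had 168, 174 and 166 CPM in shNC and 234, 170.03 and 205 CPM in shBry, a log2 fold change of 0.26 ± 0.10 (adjusted p = 0.044), with overlapping groups. MRPS34, found only in mitochondrial ribosomes, had 180.4, 177 and 158 CPM in shNC and 139, 107 and 115 CPM in shBry, a log2 fold change of -0.52 ± 0.10 (adjusted p = 0.00059), under the fold change limit. MRPL36 had 77.4, 78.1 and 71.7 CPM in shNC and 112, 92.8 and 99.4 CPM in shBry, a log2 fold change of 0.42 ± 0.09 (adjusted p = 0.0013). MRPL24 (0.17, adjusted p = 0.14) and MRPL15 (0.03, adjusted p = 0.83) did not pass the test.

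At the low end were MRPS33 at 5.78 CPM per 1000 bases, MRPL42 at 2.63 and MRPS12 at 0.634. MRPL42 has 16006 merged exon bases, most of any gene of the family, which lowers its level per length, and neither MRPS33 (log2 fold change 0.13, adjusted p = 0.33) nor MRPL42 (-0.14, adjusted p = 0.38) passed the test. MRPS12, the protein of the decoding centre in which bacteria acquire streptomycin resistance, was listed with only 20, 18 and 19 counts in shNC and 50, 9 and 9 counts in shBry. A single library, shBry replicate 1, was high, and the groups overlapped. Its log2 fold change was 0.29 ± 0.60 (adjusted p = 0.71), and without shBry replicate 1 it was -1.21 (adjusted p = 0.035) and the gene was called lower. Exons of other genes cover 21.5% of the exon bases of MRPS12, the largest part by SARS2 on the opposite strand. The direction of MRPS12 thus turned on 1 library.

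The remaining genes of special standing showed small differences. The base of the stalk is formed by MRPL10 and MRPL11. MRPL10 had 109, 109 and 98.9 CPM in shNC and 128, 112 and 122 CPM in shBry (log2 fold change 0.19 ± 0.08, adjusted p = 0.073). MRPL11 had 108, 118 and 109.6 CPM in shNC and 93.1, 71.9 and 84.7 CPM in shBry (log2 fold change -0.43 ± 0.10, adjusted p = 0.0021). The shBry values of MRPL10 were all above and those of MRPL11 all below the shNC values. MRPL45, which anchors the ribosome at the inner membrane, had 17, 14.6 and 17.4 CPM in shNC and 12.7, 10.4 and 13.6 CPM in shBry (log2 fold change -0.42 ± 0.14, adjusted p = 0.022). Of the stretches of 50 bases in its transcripts 16.4% also occur in those of other genes, with the most in a near copy, MRPL45P2. MRPL44, which has the fold of an RNase III, had 28.4, 31.7 and 34.1 CPM in shNC and 24.4, 20.4 and 28.1 CPM in shBry, a log2 fold change of -0.37 (adjusted p = 0.026). Its groups were separate by the small gap between 28.1 and 28.4 CPM. MRPS30 of the large subunit had 73.2, 78.0 and 73.8 CPM in shNC and 97.9, 101 and 107 CPM in shBry (log2 fold change 0.44 ± 0.08, adjusted p = 0.00038). MRPS36 had a log2 fold change of -0.10 ± 0.18 (adjusted p = 0.67), with overlapping groups.

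Of the 7 other proteins of the mitochondrial ribosome that carry different names, 1 was called (14.3%, against 32.4% of all tested genes). This was AURKAIP1 of the small subunit. It had 121, 121 and 101 CPM in shNC and 65, 51.4 and 66.1 CPM in shBry, a log2 fold change of -0.91 ± 0.11 (adjusted p = 8.6e-06). MRPL58, the peptidyl-tRNA hydrolase of the large subunit, is listed under its older symbol ICT1 and so lay outside the choice of names. It had 44.4, 44.2 and 43.0 CPM in shNC and 67.8, 51.2 and 64.9 CPM in shBry, a log2 fold change of 0.48 (adjusted p = 0.0018), under the limit. The median log2 fold change of the 7 genes was -0.17.

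The ribosomal RNAs of the mitochondrial ribosome were both called higher in shBry. The table lists the genes of mitochondrial DNA without the MT prefix that is used here, with CYTB for MT-CYB and COX names for the MT-CO genes. MT-RNR2, the RNA of the large subunit, had 2393, 3213 and 3397 CPM in shNC and 5699, 6561 and 6452 CPM in shBry, a log2 fold change of 1.06 ± 0.12 (adjusted p = 3.6e-06). MT-RNR1, the RNA of the small subunit, had 873, 1094 and 1110 CPM in shNC and 1707, 1486 and 1615 CPM in shBry, a log2 fold change of 0.64 ± 0.10 (adjusted p = 7.6e-05). In both cases every shBry library lay above every shNC library. How ribosomal RNA was removed from the libraries is not given in the sources used here.

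The mRNAs that this ribosome translates were lower or did not pass the test. Of the 13 mRNAs of mitochondrial DNA 2 were called lower (15.4%, against 15.2% of all tested genes) and none higher (against 17.1%). The share called lower was thus near the background. An adjusted p below 0.05 was reached by 8 (61.5%), all of them lower. Of all tested genes 53.3% reached it, 25.3% lower and 28% higher. The median log2 fold change of the 13 was -0.40. MT-ND5, a subunit of complex I, had 3204, 3482 and 3412 CPM in shNC and 1928, 2236 and 1858 CPM in shBry (log2 fold change -0.75 ± 0.09, adjusted p = 6.3e-06). MT-ATP8, a subunit of ATP synthase, had 3882, 4198 and 3893 CPM in shNC and 2449, 2543 and 2159 CPM in shBry (log2 fold change -0.74 ± 0.08, adjusted p = 4.7e-06). Under the limit but past the test were MT-ND1 (-0.40), MT-ND2 (-0.50), MT-ND6 (-0.58), MT-CYB (-0.35), MT-CO3 (-0.49) and MT-ATP6 (-0.47). The values of MT-ND3 (-0.17), MT-ND4 (0.06), MT-ND4L (-0.09), MT-CO1 (0.12) and MT-CO2 (-0.12) did not pass the test.

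Factors that work on the mitochondrial ribosome were called in both directions. Of 20 translation factors and activators 6 were called higher (30% against 17.1% of all tested genes) and 1 lower (5% against 15.2%), with a median log2 fold change of 0.09, and no difference from the other genes was tested. RMND1, which tethers translation to the membrane, rose from 5.93 ± 0.596 to 11.9 ± 0.622 CPM (log2 fold change 1.003, adjusted p = 5.4e-05). MTIF2, the initiation factor, rose from 33.0 ± 2.51 to 57.9 ± 2.49 CPM (0.81, adjusted p = 7.2e-06). MRRF, the ribosome recycling factor, rose from 40.6 ± 2.70 to 69.7 ± 5.23 CPM (0.78, adjusted p = 1e-05), and GUF1, MTRF1L and LRPPRC were the others called higher. TSFM, the exchange factor of the elongation factor TUFM, fell from 39.3 ± 3.27 to 23.3 ± 3.90 CPM (-0.76, adjusted p = 0.00021), while TUFM itself did not pass the test (-0.16, adjusted p = 0.15).

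Of 28 assembly and rRNA-modifying factors of the mitochondrial ribosome 1 was called higher (3.57%) and 6 lower (21.4%), with a median of -0.14. Among all tested genes 17.1% were called higher and 15.2% lower. GTPBP10, a GTPase of large subunit assembly, had 9.62, 12.1 and 13.5 CPM in shNC and 32.9, 41.6 and 32.1 CPM in shBry, a log2 fold change of 1.60 ± 0.15 (adjusted p = 7e-07). It rose more than any of the 76 ribosomal protein genes. METTL17, a methyltransferase-like factor of small subunit assembly, fell from 83.8 ± 3.16 to 46.3 ± 1.03 CPM (-0.86, adjusted p = 1.2e-06). TRUB2, a pseudouridine synthase, fell from 57.2 ± 1.12 to 31.2 ± 1.62 CPM (-0.88, adjusted p = 2.4e-06). MTG1, another GTPase of large subunit assembly, fell from 61.9 ± 3.49 to 32.7 ± 3.59 CPM (-0.92, adjusted p = 4.1e-06). Exons of other genes cover 75.02% of its exon bases. RPUSD4, NOA1 and TRMT61B were the others called lower.

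The lists that follow stand beside 17.1% of all tested genes called higher and 15.2% called lower. Among 19 genes for charging of mitochondrial tRNAs 2 were called higher (10.5%) and 3 lower (15.8%), with a median of -0.12. MARS2 was higher (0.88) and CARS2 lower (-0.79). Of 18 genes for maintenance and transcription of mitochondrial DNA 3 were called higher (16.7%, near the background) and none lower, with a median of 0.20. They were TWNK, listed as C10orf2, at 0.63, MTPAP at 0.68 and PNPT1 at 0.77. Of 9 regulators of mitochondrial biogenesis 2 were called higher (22.2%) and 1 lower (11.1%). ESRRA, an orphan nuclear receptor, rose from 64.4 ± 3.42 to 118 ± 10.7 CPM (0.87, adjusted p = 2.2e-06) and GABPB1 rose as given above. PPARGC1A, the coactivator PGC-1 alpha, fell from 3.87 ± 0.322 to 2.21 ± 0.653 CPM (-0.82, adjusted p = 0.011). Of 15 mitochondrial chaperones and proteases 1 was called higher and 1 lower (6.67% each). HSPA9, the matrix HSP70, rose from 371 ± 30.4 to 854 ± 64.3 CPM (1.20, adjusted p = 6.6e-08). HSPE1, the co-chaperonin HSP10, fell from 96.4 ± 10.02 to 39.7 ± 3.80 CPM (-1.28, adjusted p = 1.7e-07). Of the 21 import genes tested of 22, which carry the ribosomal proteins into mitochondria, 2 were called higher and 2 lower (9.52% each). TIMM9 (0.86) and TIMM8A (0.71) were higher, and TIMM21 (-1.06) and TIMM10B (-0.72) were lower.

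**Figure D5:**
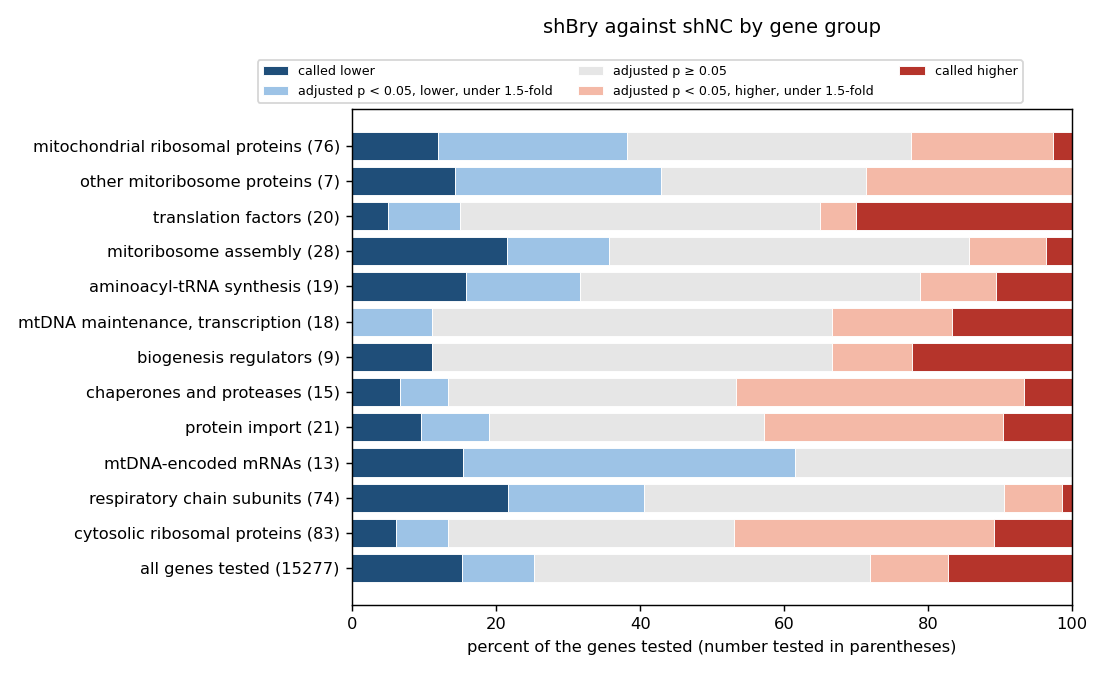
Percent of the genes tested (x axis) that were called lower, lower under the fold change limit, not past the test, higher under the limit or called higher in shBry, for the mitochondrial ribosomal proteins, 9 other lists, both comparison families and all genes tested (y axis, number tested in parentheses). The called shares of the mitochondrial ribosomal proteins, 11.8% lower and 2.63% higher, are smaller than those of all genes tested, 15.2% and 17.1%.

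The ribosomal proteins of the cytosol and the nuclear-coded respiratory chain subunits are the families most like this one. Of 83 cytosolic ribosomal protein genes tested 9 were called higher and 5 lower (16.9% in all), with a median log2 fold change of 0.20 and 39 higher against 11 lower at an adjusted p below 0.05. Of 74 respiratory chain genes tested 1 was called higher and 16 lower (23% in all), with a median of -0.11 and 7 higher against 30 lower. The mitochondrial ribosomal protein genes, with 14.5% called and a median of -0.10, had nearly the median of the respiratory chain and the smallest share of calls of the 3 families. Of all tested genes 32.4% were called. These shares and medians are set side by side as descriptions, and the differences between the families were not tested.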

How the data were processed

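RNA of 3 MDA-MB-231 shBry and 3 shNC libraries was sequenced by the authors, and the authors deposited raw counts (whole reads per gene symbol, not normalized). Per the labels, HISAT2 2.0.4, HTSeq and the GRCh38 build were used. The annotation and the use of strand are not given in the sources used here. Between 19319411 and 22985371 counts were listed per library. Samples were grouped by their labels.

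Genes with low counts were removed by filterByExpr of edgeR 4.0.16 in R 4.3.3 with a minimum count of 10, libraries were scaled by TMM, and the groups were compared by glmQLFTest, the quasi-likelihood test of edgeR. The standard error was the log2 fold change divided by the square root of F. Calls needed an adjusted p (Benjamini-Hochberg) under 0.05 as well as a fold change over 1.5. The fit was tested on simulated data. Locations, merged exons and overlaps came from GENCODE 29 basic transcripts on GRCh38, matched by symbol for 76 of 76 genes, and promoters from the first RefSeq window listed per gene on GRCh38.p14. Alternatives were DESeq2 1.42.0, limma-voom (limma 3.58.1), no TMM, other filters and fold limits, a replicate block, each library left out, genes with over 20% overlap left out, and a length and GC trend removed.

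The genes and lists were chosen with earlier results of these data known. Genes named individually were all called members, the 5 highest and 3 lowest in level per length, members of special standing (the S18 and stalk proteins, the decoding centre, the membrane anchor and others), and in each list up to 3 called genes with the smallest adjusted p. Further genes of the lists, and genes just under the limit or next to a member, were named after their values were seen.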

Additional observations from a re-analysis of the deposited data

How the results depend on the processing

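The number of genes of the family called higher and lower was 2 and 9, and under library sizes without TMM, DESeq2, limma-voom and both other filters it stayed within 1.5 times of that, with the 11 genes called each time. A fold change limit of 2 left 0 higher, 1 lower and 2297 of all genes, and no limit gave 17, 29 and 8139. Leaving out genes with over 20% overlap left 1 higher and 5 lower of 61. Leaving out each library gave 2 to 5 higher, 9 to 15 lower and 4587 to 5025 of all genes, with the most lower calls without shBry replicate 1 (15) and the most higher calls without shBry replicate 2 (5) or shNC replicate 3 (4). The median log2 fold change then lay between -0.14 and -0.05, and it was -0.11 with the length and GC trend removed. Of 407 values of 34 single genes, 384 kept direction and side of the threshold. MRPS12 had -0.36 by limma-voom, -0.022 with the replicate block and -1.21 to 0.71 with a library left out. MRPL15 (-0.057 to 0.12) and MRPS36 (-0.23 to 0.039) changed sign with a library left out, MRPS34 was called without shBry replicate 1 (-0.63) or shNC replicate 3 (-0.60), and MRPL50 (5 fits, -0.59 to -0.69), MRPL1 (3, 0.60 to 0.72), MRPS31 (2, 0.59 and 0.60), MRPL20 (1, 0.65) and MRPL27 (1, -0.60) were called in some fits. MRPL47 lost its call without shNC replicate 2 (0.56). The causes were not tested. With the replicate number as a block 2 genes were called higher, 9 lower and 4914 of all genes, but deviations of libraries with the same number correlated at only 0.18, -0.08 and -0.03, so the numbers do not pair the libraries. Counts were fewest for MRPS12 (9 to 50 a library), which was called lower without shBry replicate 1 (50 counts).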

Other observations

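Of 105 pseudogene symbols of mitochondrial ribosomal proteins in the table, only 5 reached 10 counts in any library. MRPS31P5 had 4.63, 3.64 and 4.21 CPM in shNC and 9.15, 6.79 and 10.5 CPM in shBry, and its log2 fold change was 1.08 ± 0.19 (adjusted p = 0.0003 by the quasi-likelihood test of edgeR), larger in size than that of any of the 76 genes. MRPS31P4 (0.50, adjusted p = 0.027) and MRPL45P2 (0.50, adjusted p = 0.022) were higher with groups that did not overlap, but under the fold change limit. The gene MRPS31 had 12.6, 16.9 and 17.4 CPM in shNC and 24.4, 21.5 and 22.4 CPM in shBry, a log2 fold change of 0.55 (adjusted p = 0.0043). MRPL45 itself had a log2 fold change of -0.42, opposite in sign to its near copy. Near-identical copies can share reads. Of the stretches of 50 bases in transcripts of MRPS31 only 0.917% also occur in transcripts of other genes, against 16.4% for MRPL45. How the counting treated reads with several matches was not tested. These copies and genes were chosen after their values were seen.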
